A study of Homo sapiens with 95 samples.

Results

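The comparison described here set cultures of AALE cells that overexpressed PIK3CA against cultures that overexpressed a reporter, all of them in vehicle. AALE is an immortalized human bronchial epithelial cell line. The series holds 95 wells, 24 of which received the vehicle DMSO, and the comparison rests on the 6 of these that carried PIK3CA or HcRed, 3 wells each. HcRed wells carried an empty vector with the red fluorescent reporter HcRed, which the study used as the control for its overexpression experiments. The 3 GFP wells in DMSO, whose cells had received a pSpCas9-EGFP plasmid without a guide RNA, served as a further control that shared no construct with the HcRed wells.

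Cells of 8 populations (PIK3CA, NRF2, FGFR1 and NRG1 overexpression, FAT1 and CDKN2A knockout, HcRed and GFP) were grown in 24-well plates, received DMSO or 1 of 3 tobacco-related chemicals, and were profiled by 3′ digital gene expression. This method counts messenger RNA molecules near their 3′ ends by unique molecular identifiers (UMIs). The labels do not give the form of PIK3CA (wild type or mutant), its promoter, whether a population was a pool or a clone, or how long the cells were exposed. The well names place the 3 libraries of a group next to each other in a row, with PIK3CA in the last 3 columns and HcRed in the first 3 under every chemical, so for this pair population and plate position cannot be told apart. The study calls the wells of a group biological replicates, but the sources used here do not say how the cultures were separated, and the p-values measure the spread between wells.

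PIK3CA encodes p110 alpha, the catalytic subunit of class I phosphoinositide 3-kinase (PI3K). The kinase is recruited to growth factor receptors through its regulatory subunit and makes the membrane lipid PIP3, which brings AKT to the membrane. AKT in turn restrains the FOXO transcription factors and, through mTOR complex 1, favours protein and lipid synthesis. INPP4B is a phosphatase that acts on the lipid products. In the airway, basal cells express KRT5, KRT14 and KRT17, cells that flatten into squamous epithelium add the small proline-rich SPRR proteins, and simple keratins such as KRT7, KRT8 and KRT18 are typical of luminal cells.

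The 6 wells held between 1168645 and 1509498 UMIs each, and 11231 of the 23895 genes listed had a mean count above 1 in them and were tested. The 3 GFP wells held 1191511 to 1364142 UMIs. Levels are given as CPM, which are UMI counts normalised to one library size after scaling by trimmed mean of M-values, and a gene was called when the Benjamini-Hochberg adjusted p of limma on voom weights was under 0.05. Of the 8 listed markers of airway basal epithelium, KRT5, KRT14, KRT15, KRT17, PERP, TP63 and ITGA6 were above the count minimum, as were all 7 general epithelial markers. No marker of secretory airway cells passed the minimum (summed over its 7 genes, at most 0.76 CPM in a PIK3CA well and 0 in the HcRed and GFP wells), and 2 of 8 ciliated, 2 of 11 fibroblast, 1 of 6 endothelial and 3 of 11 leukocyte markers did. None of these was called against HcRed. In limma, 2 of them passed an unadjusted p of 0.05, and in edgeR 1 was called. Against GFP, both fibroblast markers were called higher, DCN (3.08, adjusted p = 0.00138) and PDPN (0.82, adjusted p = 0.0297), and so was the leukocyte marker CD68 (1.42, adjusted p = 0.000409). The summed CPM of the fibroblast markers was 20.2 to 36.5 in PIK3CA wells, 16.4 to 22.4 in HcRed wells and 12.1 to 14.9 in GFP wells, and its part in the results below was not tested. In bulk wells, fewer cells of a kind and less RNA per cell cannot be told apart.

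PIK3CA itself was at 5.85, 16.5 and 12.9 CPM in the 3 PIK3CA wells, 4.09, 1.36 and 0.746 CPM in the HcRed wells, and 2.49, 0.808 and 3.59 CPM in the GFP wells. Every PIK3CA well lay above every control well, although the lowest of them was close to the highest control. The log2 fold change against HcRed was 2.47 (SE 0.57, adjusted p = 0.00208), and against GFP it was 2.18 (adjusted p = 0.00162). Because only 3′ ends are counted and the labels do not say whether the construct carries the gene's own 3′ end, the counts may not hold all transcripts of the construct.

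SPARC, a secreted matrix glycoprotein, was at 213, 223 and 235 CPM in PIK3CA wells, 56.4, 46.9 and 64.9 CPM in HcRed wells, and 4.14, 2.42 and 2.15 CPM in GFP wells. The 3 groups did not overlap, and on the log2 scale the controls were farther from each other than PIK3CA wells were from HcRed wells. SPARC was 2.01 higher than in HcRed wells on the log2 scale (SE 0.12, adjusted p = 5.65e-23) and 6.17 higher than in GFP wells (adjusted p = 3.08e-21).

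**Figure D1:**
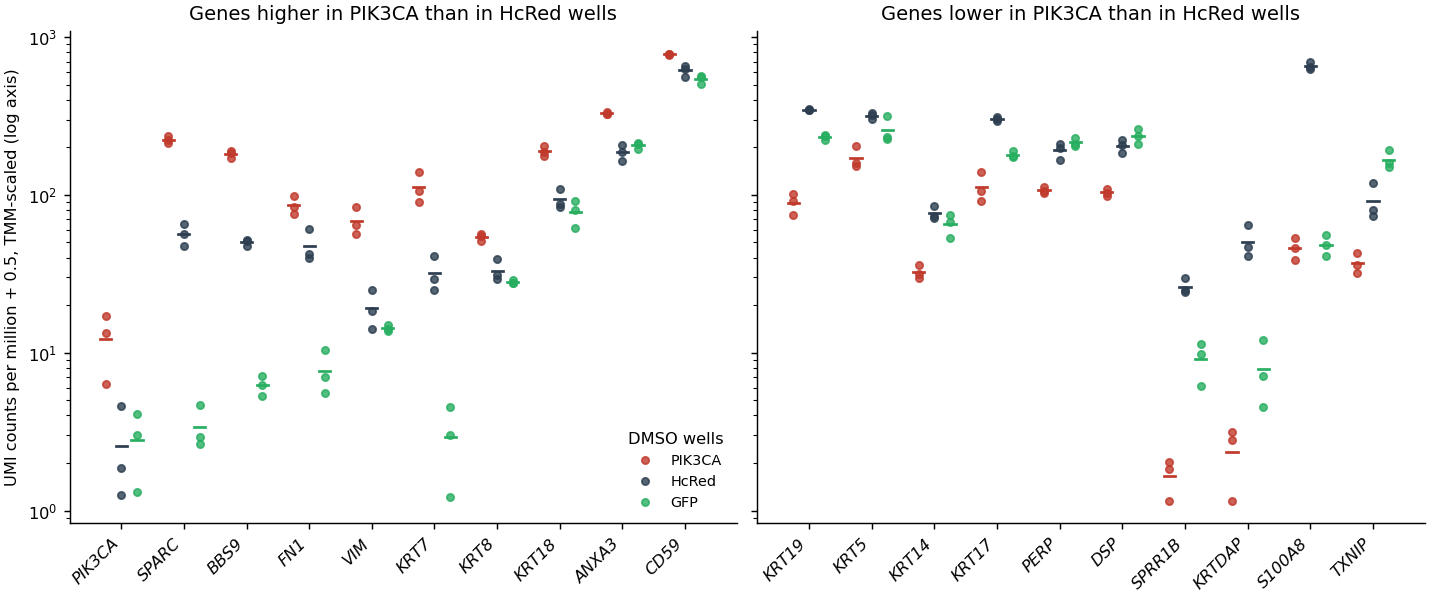
CPM + 0.5 (log axis, UMI counts normalised to one library size and scaled by trimmed mean of M-values) of genes called higher (left) and lower (right) against HcRed, in the 3 PIK3CA, 3 HcRed and 3 GFP wells in DMSO, with 1 point a well and a bar at each group's mean. SPARC, KRT7 and VIM are highest in PIK3CA wells, SPRR1B and KRTDAP are lowest there, and for S100A8 the PIK3CA wells (38.3 to 52.7 CPM) lie among the GFP wells (40.6 to 55.3 CPM).

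In PIK3CA wells 603 genes were called against HcRed wells, which is 5.37% of those tested, with 382 higher (3.4%) and 221 lower (1.97%). The counts given below for single gene lists are to be read beside these shares. The higher genes changed little, with a median log2 fold change of 0.416, whereas the lower genes had a median size of 0.852. Beyond 1 on the log2 scale were 41 of the higher and 88 of the lower genes, and beyond 2 were 6 and 31. The higher genes were also the more abundant ones, with a median mean count of 273.7 against 48.8 for the lower genes and 11.3 for all genes tested.

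The GFP wells separated 2 kinds of difference. Of the 382 higher genes, 277 (72.5%) were also called higher against GFP (9.55% of all genes tested there), 89 were not called and 16 were called lower. Of the 221 lower genes, 142 (64.3%) were also called lower against GFP (8.34% of all genes tested there), 67 were not called, 7 were called higher and 5 were below the count minimum. The shared genes were 26.1% of the 1061 genes called higher against GFP and 15.3% of the 927 called lower. PIK3CA against GFP called 1988 of 11114 genes (17.9%), and the controls themselves differed in 1201 of 11134 (10.8%). Both comparisons with PIK3CA share the PIK3CA wells, so a gene called in both is not an independent repeat. All 3 PIK3CA wells lay above all 6 control wells for 283 of the 382 higher genes and for 6.01% of all genes tested. They lay below all 6 for 149 of the 221 lower genes and for 4.85% of all genes tested.

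Genes of the basal epithelial layer were lower in PIK3CA wells. Of 18 basal keratins and basal cell genes tested, 11 fell and none rose, with a median log2 fold change of -0.81 against -0.02 over all genes tested, and 9 of the 11 also fell against GFP. No member reached an unadjusted p of 0.05 in the higher direction, and the count of lower genes was 12 in edgeR, 7 in DESeq2, which gave 1 of the 11 no adjusted p, and 8 with all DMSO wells in 1 fit. KRT5, the keratin of basal cells, was at 159, 152 and 205 CPM in PIK3CA wells, 330, 318 and 303 CPM in HcRed wells, and 225, 314 and 233 CPM in GFP wells. Its fall of 0.90 on the log2 scale against HcRed (SE 0.09, adjusted p = 2.84e-13) and of 0.56 against GFP (adjusted p = 4.34e-06) left no PIK3CA well inside either control group. KRT14, the pairing partner of KRT5 in the basal filament, was at 29.3, 31.1 and 35.7 CPM in PIK3CA wells, 71.2, 84.2 and 73.1 CPM in HcRed wells and 53, 73.6 and 66.7 CPM in GFP wells. All 3 PIK3CA wells were below all control wells, and the log2 fold change was -1.25 (SE 0.15, adjusted p = 2.34e-09). KRT17, a keratin of basal and wounded epithelium, was at 106, 91.2 and 140 CPM, against 300, 292 and 313 CPM in HcRed wells and 175, 173 and 189 CPM in GFP wells. The difference from HcRed was -1.45 (SE 0.10, adjusted p = 3.16e-20) and that from GFP was -0.69 (adjusted p = 3.42e-07).

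Desmosomes and hemidesmosomes tie epithelial cells to each other and to the basement membrane, and their genes differed singly. DST, which links keratin filaments to hemidesmosomes, had 119, 134 and 158 CPM in PIK3CA wells against 228, 244 and 230 CPM in HcRed wells and 298, 272 and 276 CPM in GFP wells, and the log2 fold change was -0.79 (SE 0.09, adjusted p = 7.14e-10). PERP, a desmosomal membrane protein, differed by -0.83 from HcRed (SE 0.10, adjusted p = 1.4e-09) and by -0.99 from GFP (adjusted p = 2.03e-13). COL17A1, the hemidesmosomal collagen, differed by -0.63 from HcRed (SE 0.18, adjusted p = 0.0262), and its call was lost in DESeq2 and without single wells. LAMB3, a chain of the basement membrane laminin, was at 25.4, 28.4 and 18.3 CPM in PIK3CA wells, below the 50.7 to 54.5 CPM of HcRed wells and the 49.5 to 59 CPM of GFP wells, and the log2 fold change was -1.13 (SE 0.18, adjusted p = 2.44e-06). TP63, the transcription factor that defines basal cells, had 18.2, 17.8 and 9.89 CPM against 19.6, 27.2 and 25.4 CPM in HcRed wells. All PIK3CA wells were below all HcRed wells, but TP63 was not called (-0.66, SE 0.24, adjusted p = 0.0919). The hemidesmosomal integrins ITGA6 (-0.17, SE 0.14, adjusted p = 0.596) and ITGB4 (0.43, SE 0.29, adjusted p = 0.489) were not called either. KRT6A, a keratin of activated epithelium, was lower only against HcRed: PIK3CA wells had 182, 169 and 157 CPM, HcRed wells 339, 346 and 307 CPM, and GFP wells 152, 188 and 164 CPM. KRT6A shares most of its sequence with KRT6B and KRT6C, and UMIs that aligned to more than 1 of them were not counted.

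Of 18 squamous differentiation genes tested, 5 fell. KRTDAP, a secreted protein of differentiating keratinocytes, was at 0.65, 2.64 and 2.28 CPM in PIK3CA wells, 63.8, 46.2 and 40.3 CPM in HcRed wells, and 6.63, 4.04 and 11.5 CPM in GFP wells. No well of 1 group reached another group, and the log2 fold change was -4.66 against HcRed (SE 0.51, adjusted p = 3.77e-11) and -1.90 against GFP (adjusted p = 0.011). SPRR1B, a precursor of the cornified envelope, was at 0.65, 1.32 and 1.52 CPM, against 23.7, 24.4 and 29.1 CPM in HcRed wells and 10.8, 5.66 and 9.33 CPM in GFP wells. It differed by -4.18 from HcRed (SE 0.58, adjusted p = 5.85e-08) and by -2.59 from GFP (adjusted p = 0.000863).

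SPRR3 and SPRR1A, of the same family, had no UMI in the 3 PIK3CA wells together, where the floor of 3 counts over the group corresponds to 0.687 CPM. SPRR3 had 27 UMIs over the 3 HcRed wells and was at least 9.74-fold lower in PIK3CA wells, and SPRR1A had 18 and was at least 6.49-fold lower. GFP wells held 1 UMI of SPRR3 and 2 of SPRR1A, so neither gene passed the count minimum there and the low level was not particular to PIK3CA cells. DSP, the desmosomal plaque protein desmoplakin, which is also on the list, was at 103, 97.8 and 109 CPM against 206, 221 and 184 CPM in HcRed wells and 235, 261 and 211 CPM in GFP wells (-0.98, SE 0.10, adjusted p = 2.68e-12). These 5 were the members called lower among the 18 squamous genes tested, with none called higher, and the median of the list was -0.72, also with SPRR3 and SPRR1A set at their bounds. At an unadjusted p of 0.05 the list had 7 lower and 0 higher genes, in edgeR 5 and 0, and in DESeq2, which gave 3 of the 5 no adjusted p, 2 and 0. SPRR1A and SPRR1B are close copies, and UMIs that aligned to both were not counted.

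The promoters of the 4 genes with the largest falls in this group are shown because they share a motif. Each line gives the 250 bases upstream of the transcript start, 5′ to 3′ on the gene's strand, from RefSeq on GRCh38.p14, a different build from the hg19 transcripts used for counting. Capitals mark TGANTCA, the motif of the AP-1 factors, which reads as the same pattern on both strands.
SPRR1A: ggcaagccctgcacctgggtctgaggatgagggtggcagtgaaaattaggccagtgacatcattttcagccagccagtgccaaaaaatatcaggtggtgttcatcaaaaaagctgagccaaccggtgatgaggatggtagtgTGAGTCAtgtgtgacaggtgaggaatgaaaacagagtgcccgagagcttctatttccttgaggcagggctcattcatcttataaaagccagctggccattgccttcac
SPRR1B: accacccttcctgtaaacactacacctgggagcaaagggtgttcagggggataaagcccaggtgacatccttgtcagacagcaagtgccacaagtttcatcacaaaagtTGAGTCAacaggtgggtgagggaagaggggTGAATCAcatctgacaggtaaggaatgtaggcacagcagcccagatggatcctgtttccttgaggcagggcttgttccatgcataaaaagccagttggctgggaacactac
SPRR3: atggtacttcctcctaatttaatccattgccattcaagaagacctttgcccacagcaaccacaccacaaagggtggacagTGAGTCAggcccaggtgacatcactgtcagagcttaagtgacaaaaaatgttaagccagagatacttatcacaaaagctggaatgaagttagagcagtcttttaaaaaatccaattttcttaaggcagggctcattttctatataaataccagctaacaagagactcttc
KRTDAP: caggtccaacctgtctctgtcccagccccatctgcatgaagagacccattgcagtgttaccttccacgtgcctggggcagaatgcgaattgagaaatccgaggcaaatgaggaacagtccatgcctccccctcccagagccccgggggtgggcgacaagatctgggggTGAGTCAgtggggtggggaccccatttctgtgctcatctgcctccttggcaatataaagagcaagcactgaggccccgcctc

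These windows lie at chr1:152983831-152984080 (plus strand, SPRR1A), chr1:153030953-153031202 (plus strand, SPRR1B), chr1:153001499-153001748 (plus strand, SPRR3) and chr19:35490465-35490714 (minus strand, KRTDAP). The motif begins 108 bases before the transcript start of SPRR1A, 141 and 111 bases before that of SPRR1B, 170 bases before that of SPRR3 and 82 bases before that of KRTDAP. In the same window, 6.6% of 27305 RefSeq promoters held the motif, as did 4.01% of the 8346 tested genes with a promoter entry. Among genes called lower the share was 18 of 155 (11.6%), and among those below -1 on the log2 scale it was 12 of 58 (20.7%), whereas it was 6 of 290 (2.07%) among genes called higher. DSP had no match, and 3 of the 7 squamous genes that were tested and not called had one. The TATA box letters TATAAA were in 24.1% of the promoters of genes called lower below -1 and in 11.1% of all promoters. They were in 5.26% of the promoters of tested genes and 7.93% of those of genes called higher. A match is a description of the letters only, and binding of a factor was not measured.

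Kallikreins are secreted serine proteases that cleave the desmosomes of the uppermost squamous cells. KLK7 was at 2.6, 1.98 and 1.52 CPM in PIK3CA wells, 16.4, 19.7 and 14.9 CPM in HcRed wells, and 19.1, 18.6 and 23.7 CPM in GFP wells. All PIK3CA wells were below all control wells, and the log2 fold change was -2.87 against HcRed (SE 0.47, adjusted p = 4.81e-06) and -3.12 against GFP (adjusted p = 1.51e-07). KLK8 had no UMI in PIK3CA wells, 8 in HcRed wells and 16 in GFP wells, and was at least 2.89-fold lower than in HcRed wells, a difference that was not called (adjusted p = 0.0683). KLK10 (adjusted p = 0.0448) and KLK11 (adjusted p = 0.0446) were called narrowly. KLK10 did not pass in edgeR (adjusted p = 0.0814) or without any 1 of the 6 wells, and KLK11 did not pass without any 1 PIK3CA well or without HcRed well 3. SERPINB13, a protease inhibitor of squamous epithelium, was at 3.25, 3.31 and 2.28 CPM, against 21.3, 16.3 and 25.4 CPM in HcRed wells and 43.1, 23.4 and 46.6 CPM in GFP wells, and the log2 fold change was -2.66 (SE 0.41, adjusted p = 9.47e-07). CSTA, the inhibitor cystatin A, was at 334, 336 and 378 CPM, below the 608 to 646 CPM of HcRed wells and the 762 to 807 CPM of GFP wells (-0.84, SE 0.07, adjusted p = 3.63e-17).

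The simple keratins divided. Of 6 tested, KRT7, KRT8 and KRT18 rose and KRT19 fell, each against both controls. KRT7 was at 140, 89.9 and 106 CPM in PIK3CA wells, 28.6, 40.7 and 24.6 CPM in HcRed wells, and 2.49, 4.04 and 0.718 CPM in GFP wells. Every PIK3CA well was above every control well, and the log2 fold change was 1.82 against HcRed (SE 0.17, adjusted p = 4.6e-14) and 5.60 against GFP (adjusted p = 1.44e-14). KRT18, which forms filaments with KRT8, was at 177, 186 and 203 CPM against 109, 86.9 and 83.6 CPM in HcRed wells and 79.6, 61.4 and 90.4 CPM in GFP wells (1.03, SE 0.11, adjusted p = 3.82e-12). KRT8 rose by 0.71 against HcRed (SE 0.17, adjusted p = 0.00222) and by 0.96 against GFP (adjusted p = 1.26e-05). KRT19 went the other way, at 91, 74 and 101 CPM in PIK3CA wells, 344, 348 and 343 CPM in HcRed wells, and 239, 222 and 237 CPM in GFP wells. Its log2 fold change was -1.97 against HcRed (SE 0.10, adjusted p = 3.77e-27) and -1.39 against GFP (adjusted p = 2.22e-18), and no PIK3CA well came near either control.

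Genes of epithelial and mesenchymal identity moved in both directions, 3 higher and 3 lower of 22 tested. VIM, the mesenchymal filament protein vimentin, was at 83.9, 63.5 and 56.3 CPM in PIK3CA wells, 18, 13.6 and 24.6 CPM in HcRed wells, and 13.3, 14.5 and 13.6 CPM in GFP wells. All PIK3CA wells were above all controls, and the log2 fold change was 1.88 against HcRed (SE 0.20, adjusted p = 1.96e-11) and 2.27 against GFP (adjusted p = 2.43e-13). AXL, a receptor tyrosine kinase, rose by 1.00 (SE 0.23, adjusted p = 0.00208) and by 1.03 against GFP (adjusted p = 0.000751). The epithelial adhesion gene EPCAM was at 37.7, 41.6 and 44.1 CPM against 31.9, 23.1 and 28.4 CPM in HcRed wells, and its rise of 0.58 (SE 0.18, adjusted p = 0.0384) was not called in DESeq2. CDH1, which encodes E-cadherin, was not called (-0.67, SE 0.23, adjusted p = 0.0736). CD24, a surface protein of epithelial cells, fell by 1.00 on the log2 scale against HcRed (SE 0.10, adjusted p = 7.21e-12), with 85.8, 87.9 and 101 CPM against 178, 175 and 196 CPM in HcRed wells and 164, 175 and 159 CPM in GFP wells. FXYD3, a regulator of the sodium pump in epithelia, was at 456, 475 and 568 CPM in PIK3CA wells, 1040 to 1140 CPM in HcRed wells and 1500 to 1670 CPM in GFP wells (-1.14, SE 0.06, adjusted p = 2.5e-26).

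Of the 29 extracellular matrix genes tested, SPARC and FN1 rose and COL17A1, LAMA5 and LAMB3 fell, all 5 against GFP as well. LAMA5 did not pass without any 1 of the PIK3CA wells (adjusted p = 0.0587 to 0.204), and DESeq2 called 1 of the 3 lower genes, LAMB3, and gave LAMA5 no adjusted p. FN1, which encodes fibronectin, was at 98.2, 83.3 and 75.3 CPM in PIK3CA wells, 39.3, 60.4 and 41.8 CPM in HcRed wells, and 9.94, 6.47 and 5.02 CPM in GFP wells. The groups did not overlap, and the log2 fold change was 0.87 against HcRed (SE 0.15, adjusted p = 1.02e-05) and 3.60 against GFP (adjusted p = 4.77e-17). TGFBI, another matrix protein, was far above GFP wells (1.51, adjusted p = 4.74e-17) and was not called against HcRed wells (0.08, SE 0.09, adjusted p = 0.741). LGALS1, the lectin galectin-1, was at 702, 706 and 678 CPM, against 356 to 383 CPM in HcRed wells and 143 to 169 CPM in GFP wells (0.92, SE 0.06, adjusted p = 7.65e-20).

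**Figure D2:**
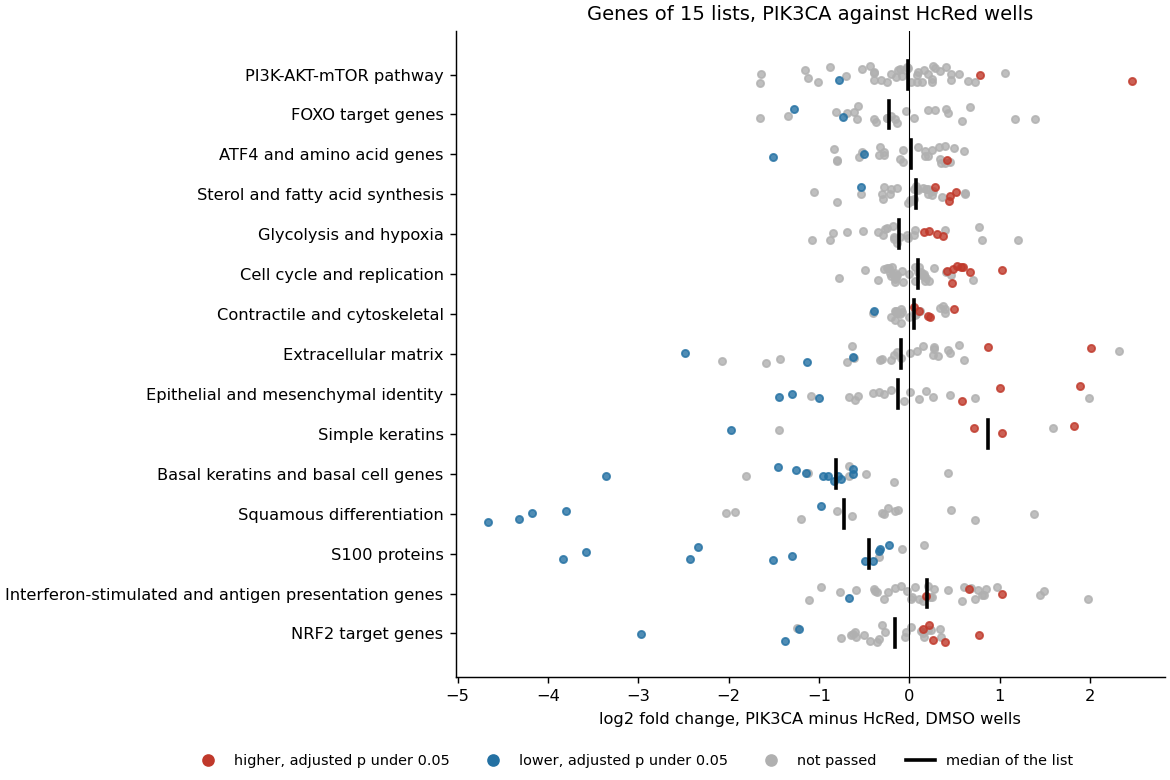
Log2 fold change of PIK3CA against HcRed wells in DMSO for each tested gene of 15 gene lists, 1 point a gene, red for genes called higher, blue for genes called lower and grey for the rest, with a black line at each list's median. The medians of the basal, squamous and S100 lists lie to the left of 0, with 11 of 18, 5 of 18 and 11 of 14 genes called lower, and the PI3K-AKT-mTOR list is spread around 0 with PIK3CA at its right end.

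Some of the strongest differences from HcRed wells were not differences from GFP wells. S100A8, a calcium-binding alarmin of stressed epithelium and neutrophils, was at 52.7, 38.3 and 45.6 CPM in PIK3CA wells and 695, 641 and 623 CPM in HcRed wells, but 40.6, 47.7 and 55.3 CPM in GFP wells. PIK3CA and GFP wells overlapped, so that the log2 fold change was -3.84 against HcRed (SE 0.12, adjusted p = 4.63e-40) and -0.07 against GFP (adjusted p = 0.833). Its partner S100A9 was at 7.15, 3.31 and 3.04 CPM, against 22.9, 23.8 and 22.4 CPM in HcRed wells and 0.829, 0.808 and 0.718 CPM in GFP wells. PIK3CA wells thus lay between the controls, lower than HcRed (-2.35, SE 0.35, adjusted p = 6.18e-07) and higher than GFP (1.99, adjusted p = 0.0428).

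S100A6, which is abundant in these cells, was between the controls as well, at 5310, 5040 and 5740 CPM in PIK3CA wells, 7520, 6670 and 7090 CPM in HcRed wells and 4390, 4430 and 4670 CPM in GFP wells. The secreted antiproteases PI3 (elafin) and SLPI shared this order. PI3 was at 41, 35.7 and 37.3 CPM in PIK3CA wells, 150 to 215 CPM in HcRed wells and 10.5 to 20.7 CPM in GFP wells, and SLPI was at 248, 190 and 274 CPM, 458 to 553 CPM and 65.5 to 76.1 CPM. For these 2 genes the sign of the difference therefore depended on the control, with PI3 at -2.23 against HcRed (SE 0.14, adjusted p = 7.07e-22) and 1.37 against GFP (adjusted p = 2.15e-06).

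Of the 14 S100 genes tested, 11 fell against HcRed, none rose, and 4 of the 11 also fell against GFP. The list had 1 gene higher at an unadjusted p of 0.05, and edgeR called 0 higher and 11 lower, DESeq2 0 and 6, with no adjusted p for 4 of the 11. S100A2, an S100 protein of basal and squamous cells, differed from both controls, at 3630, 3400 and 3730 CPM in PIK3CA wells, 5490, 4680 and 5020 CPM in HcRed wells, and 5100, 5410 and 5150 CPM in GFP wells (-0.49 against HcRed, SE 0.03, adjusted p = 1.48e-21). S100A4, an S100 protein linked to cell motility, was also lower than in both, at 16.9, 24.5 and 28.9 CPM against 46.2 to 63.4 CPM in HcRed wells and 40.6 to 53.8 CPM in GFP wells, with adjusted p = 1.73e-07 and 2.12e-05. Genes higher than in HcRed wells and at or below the GFP level included ANXA1, an annexin with anti-inflammatory activity, which was at 1770, 1810 and 1670 CPM in PIK3CA wells, 1330 to 1420 CPM in HcRed wells and 2000 to 2230 CPM in GFP wells. GAPDH was another, 0.21 higher than in HcRed wells (SE 0.04, adjusted p = 4.18e-06) and not called against GFP (-0.05, adjusted p = 0.333).

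Of 44 genes of the PI3K-AKT-mTOR list tested, 3 were called, close to the 5.37% of all genes tested, and the list's median was -0.02, the same as over all genes. Against GFP 7 of 41 were higher and 3 lower, beside 17.9% of all genes called. The 3 genes called against HcRed were PIK3CA, INPP4B and PDCD4. For this list edgeR called 2 higher and 1 lower. DESeq2 called 1 and 0, and gave 1 of the 3 genes no adjusted p. PDCD4 did not pass in DESeq2 (adjusted p = 0.0764) or without HcRed well 2 (adjusted p = 0.0886 in limma). INPP4B, a phosphatase that acts on a lipid product of PI3K, was at 46.2, 44.3 and 39.5 CPM in PIK3CA wells, 22.1, 28.5 and 24.6 CPM in HcRed wells, and 9.94, 14.5 and 7.89 CPM in GFP wells. Its rise of 0.78 (SE 0.18, adjusted p = 0.00233) and of 2.04 against GFP (adjusted p = 5.91e-10) left the groups apart. PDCD4, a translation inhibitor that is degraded on S6 kinase signalling, was at 18.9, 17.2 and 16.7 CPM against 29.4, 34.6 and 27.6 CPM in HcRed wells and 24.9, 27.5 and 35.9 CPM in GFP wells (-0.78, SE 0.21, adjusted p = 0.0107).

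The regulatory subunit PIK3R1 was at 8.45, 5.29 and 9.13 CPM in PIK3CA wells and 5.22 to 9.82 CPM in HcRed wells (0.02, SE 0.36, adjusted p = 0.985). MTOR (-0.53, SE 0.25, adjusted p = 0.26) and AKT1 (-1.01, SE 0.61, adjusted p = 0.425) were not called, and their standard errors leave differences of that size undetectable at this depth. Activity of the pathway, which runs through lipids and phosphorylation, was not measured.

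Of 26 FOXO target genes tested, TXNIP and TSC22D3 were lower than in both controls and none was called higher. At an unadjusted p of 0.05 there were 3 lower and 0 higher, edgeR called 2 and 0, and DESeq2 1 and 0. TXNIP, an arrestin-like protein that limits glucose uptake, was at 42.3, 31.7 and 35.7 CPM in PIK3CA wells, 72.8, 80.1 and 119 CPM in HcRed wells, and 193, 150 and 158 CPM in GFP wells. The groups did not overlap, and the log2 fold change was -1.27 against HcRed (SE 0.16, adjusted p = 3.52e-09) and -2.16 against GFP (adjusted p = 6.87e-21). TSC22D3, the glucocorticoid-induced protein GILZ, fell by 0.73 on the log2 scale (SE 0.23, adjusted p = 0.039), with 1 HcRed well at 19.4 CPM inside the PIK3CA range of 14.3 to 20.5 CPM. It did not pass in DESeq2 (adjusted p = 0.151), with all DMSO wells in 1 fit (adjusted p = 0.0683) or without any 1 of PIK3CA wells 1 and 2 and HcRed wells 1 and 2, which leaves TXNIP alone.

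Metabolic genes showed small rises of abundant transcripts. Of 26 glycolysis and hypoxia genes, LDHA, ENO1, ALDOA and GAPDH rose against HcRed, and LDHA and ALDOA also against GFP. LDHA, which converts pyruvate to lactate, was at 1700, 1680 and 1800 CPM in PIK3CA wells, 1470, 1330 and 1420 CPM in HcRed wells, and 1020, 1060 and 1070 CPM in GFP wells (0.30, SE 0.04, adjusted p = 9.94e-08). Other enzymes of the path did not pass, among them PKM (-0.01, SE 0.07, adjusted p = 0.953) and TPI1 (-0.02, SE 0.06, adjusted p = 0.901), and the list's median was -0.12. Of 31 sterol and fatty acid synthesis genes, IDI1, MSMO1, EBP and FDFT1 rose. MSMO1, a methylsterol oxidase, was at 616, 583 and 528 CPM against 400, 416 and 454 CPM in HcRed wells and 326 to 352 CPM in GFP wells (0.45, SE 0.07, adjusted p = 5.62e-07), while FDFT1, squalene synthase, was above HcRed (0.28, SE 0.07, adjusted p = 0.00564) and below GFP (-0.41, adjusted p = 5.1e-07).

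Genes induced by amino acid shortage through ATF4 had 1 gene higher (WARS) and 2 lower of 28. NUPR1, a stress-induced nuclear protein, was at 3.9, 5.29 and 6.84 CPM in PIK3CA wells, 13.9, 15.6 and 16.4 CPM in HcRed wells, and 54.7, 45.3 and 50.9 CPM in GFP wells (-1.51, SE 0.34, adjusted p = 0.00137). ASNS, asparagine synthetase, was at 86.5, 78 and 79.9 CPM, against 111 to 120 CPM in HcRed wells and 306 to 337 CPM in GFP wells (-0.51, SE 0.11, adjusted p = 0.00146). In both genes the step between the controls was larger than the step from HcRed to PIK3CA wells.

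Of the 22 ERK feedback and immediate early genes, DUSP6, a phosphatase that acts on ERK, was the 1 called. It was at 15, 12.6 and 8.37 CPM in PIK3CA wells, 2.45, 4.75 and 2.24 CPM in HcRed wells, and 4.14, 0 and 2.15 CPM in GFP wells (1.83, SE 0.43, adjusted p = 0.00303), and DESeq2 gave it no adjusted p and called no other gene of the list. AREG, an EGFR ligand, was at 140, 129 and 146 CPM against 81, 84.2 and 75.4 CPM in HcRed wells and 35.6, 38 and 30.1 CPM in GFP wells. It was higher in every PIK3CA well than in any control well (0.78, SE 0.11, adjusted p = 1.86e-07) and was the 1 called of 12 ERBB receptors and ligands, among which EGFR was not called (-0.32, SE 0.20, adjusted p = 0.448).

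Of 41 cell cycle and replication genes, 8 rose, each against GFP as well, and none was called lower, beside 3.4% and 1.97% of all genes tested. At an unadjusted p of 0.05 there were 13 higher and 2 lower, and edgeR called 8 and 0. The list's median was 0.09. Against GFP 15 were higher and 8 lower, beside 9.55% and 8.34% of all genes tested there. Against HcRed under CSC 2 were higher and 2 lower (median -0.004), while under NNK 8 were higher and 0 lower. CCND2, cyclin D2, was at 39, 33.1 and 44.1 CPM in PIK3CA wells, 18, 21.7 and 16.4 CPM in HcRed wells, and 0, 0.808 and 0 CPM in GFP wells (1.02, SE 0.20, adjusted p = 0.000239). The groups were well apart. AURKA, TPX2 and UBE2C, which act in mitosis, rose by 0.49, 0.67 and 0.57 (adjusted p = 1.17e-07, 7.09e-07 and 5.47e-06). These 3 genes all lie on the long arm of chromosome 20, which is described next.

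Neighbouring genes on some chromosome arms moved together. The following runs were chosen after their values were seen, so they are described without a test, using the 5508 genes with an hg19 position and a mean count of at least 10, of which 344 were higher and 170 lower (median 0.016). On 20q, the 13 genes from GNAS to the end of the arm (chr20:57414773-62664453) were all lower than in HcRed wells, 7 of them called, with a median of -0.98. They include RPS21, a ribosomal protein, at 2160, 2100 and 2290 CPM in PIK3CA wells, 4520, 4090 and 4340 CPM in HcRed wells and 5580, 5620 and 5200 CPM in GFP wells (-0.98, SE 0.03, adjusted p = 3.98e-38). PSMA7, a proteasome subunit, was at 207, 226 and 224 CPM against 361 to 408 CPM in HcRed wells, and GNAS, the stimulatory G protein subunit, at 99.5, 104 and 113 CPM against 229 to 261 CPM. The remaining members include PHACTR3 (-1.63, adjusted p = 3.31e-10) and PRPF6 (-1.32, adjusted p = 5.05e-08). LAMA5, the laminin chain named above, lies in the same stretch (chr20:60883011-60942368) but was below the count used for the runs.

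The rest of 20q went the other way. Of 101 genes before GNAS, 31 were called higher and 2 lower (PI3 and SLPI), with a median of 0.275, and all but 1 of them were above 0 against GFP (median 0.736). The short arm, 20p, had a median of -0.282 over 53 genes, 45 of them below 0. At the end of 11q, the 16 genes from HSPA8 to THYN1 (chr11:122928197-134123264) were all higher, 9 of them called, with a median of 0.824. HSPA8, a constitutive heat shock protein, was at 2520, 2350 and 2420 CPM in PIK3CA wells, 1790, 1690 and 1800 CPM in HcRed wells and 1340, 1320 and 1370 CPM in GFP wells (0.47, SE 0.04, adjusted p = 5.22e-17). On 4q, 20 of 157 genes were called higher and none lower, with a median of 0.215. Against GFP 85 of these genes were higher and none lower, with a median of 0.658. Over all 5508 genes 889 were higher and 673 lower against GFP, with a median of 0.021. INPP4B, AREG, MSMO1, ANXA3 and RPL34 lie on this arm. On 5q, 51 of 255 genes were called higher and none lower, with a median of 0.197, and SPARC and NPM1 are among them. On 5p no gene of 42 was called and the median was -0.002. The called genes were 20% of those on 5q and 12.7% of those on 4q, against 9.33% of all 5508. On 12q they were 14.1%, with 32 of 249 genes higher and 3 lower and a median of 0.152. KRT7, KRT8, KRT18, KRT5 and KRT6A lie on 12q. On 7p, where BBS9 lies, 14 of 88 genes were higher and 6 lower, with a median of 0.047. On 1q they were 10.4%, with 2 of 268 genes higher and 26 lower and a median of -0.122. Against GFP 8 genes of 1q were higher and 61 lower. S100A2, S100A4, S100A6, S100A8, S100A9, SPRR1B and LAMB3 lie on 1q. SPRR1A and SPRR3 lie there too but were below the count used for the runs.

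**Figure D3:**
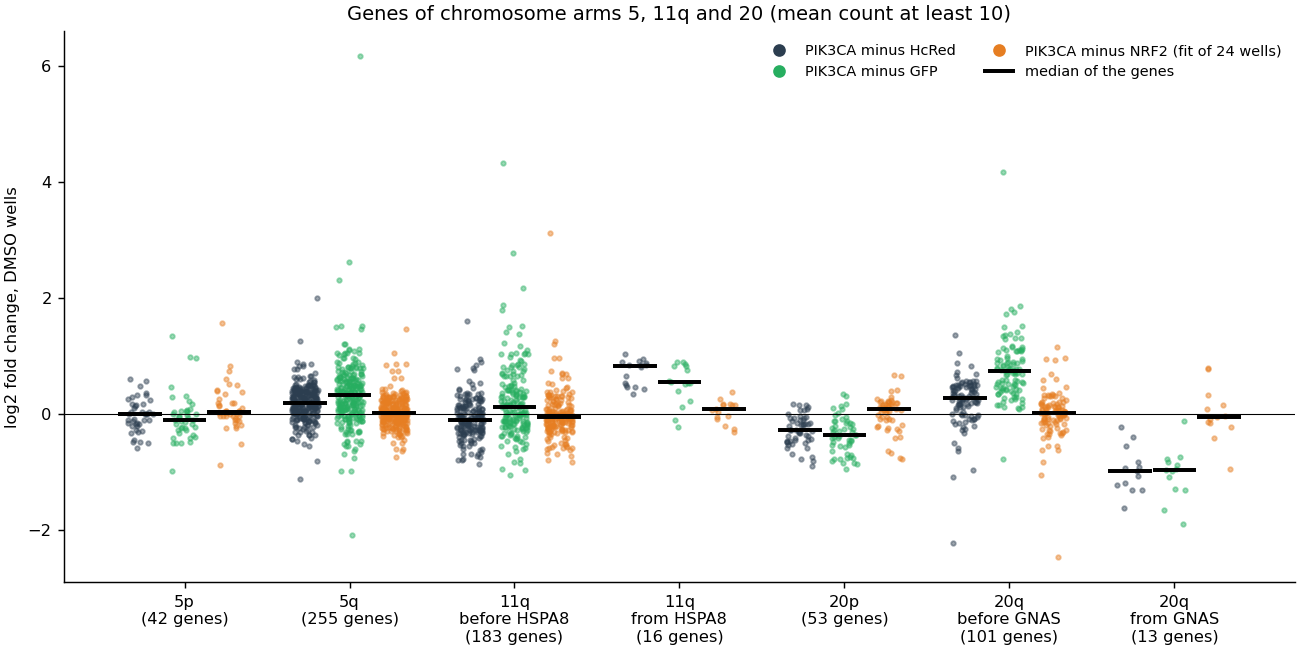
Log2 fold change of PIK3CA wells against HcRed, GFP and NRF2 wells in DMSO (vertical axis) for genes of 5p, 5q, 11q, 20p and 20q with a mean count of at least 10, 1 point a gene, with a black line at each median. Against HcRed the 13 genes from GNAS to the end of 20q lie below 0 (median -0.98) and the 16 genes from HSPA8 to the end of 11q above 0 (median 0.824), while against NRF2 the medians are -0.04 and 0.09.

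The same runs stood out in other wells. From GNAS to the end of 20q the median against HcRed was -1.07 in the CSC wells and -0.91 in the NNK wells, and at the end of 11q it was 0.71 and 0.65. In the single wells, the log2 value (CPM + 1) of each gene was set against its mean in the HcRed wells and the median over the run was taken. At the end of 20q this gave -0.91, -0.80 and -0.91 in PIK3CA wells, 0.07, -0.11 and 0.02 in HcRed wells, 0.22, 0.12 and 0.20 in GFP wells, and -0.89, -0.95 and -0.97 in NRF2 wells. NRF2 wells therefore lay with PIK3CA wells, and no well of HcRed or GFP came near them. At the end of 11q the PIK3CA wells were at 0.52, 0.81 and 0.82 and the NRF2 wells at 0.80, 0.60 and 0.64, while FGFR1 wells were at 0.36 to 0.54 and NRG1 wells at -0.14 to -0.02. Over 5q the PIK3CA wells were at 0.17 to 0.22, the NRF2 wells at 0.17 to 0.21, and the HcRed wells at -0.03 to 0.02. Whether these stretches of DNA differed in number between populations was not measured, and the source of the shared shifts was not tested.

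Among the 5 populations that were no controls, the NRF2 wells differed from the PIK3CA wells in the fewest genes. In a fit of all 24 DMSO wells, 248 of 11595 genes were called between PIK3CA and NRF2 wells (2.14%), 352 against FGFR1 (3.04%), 389 against NRG1 (3.35%), 1869 against FAT1 (16.1%) and 2359 against CDKN2A (20.3%). Against the HcRed control wells the same fit called 397 genes (3.42%). The basal keratins and basal cell genes were lower than in NRF2 wells too, 8 of 17 called with a median of -0.575, and so were 5 of 17 squamous genes (median -0.786) and 9 of 14 S100 genes (median -0.452), where 1.04% of all genes were called lower. This did not hold for every population. Against NRG1 wells 1 of 17 basal, 0 of 17 squamous and 6 of 14 S100 genes were lower, and against FGFR1 wells 7, 1 and 1. Of all genes, 1.57% and 0.914% were called lower there. Against FGFR1 wells 1 squamous gene was higher. Against FAT1 wells the basal genes had 3 higher and 4 lower, the squamous genes 2 and 1, and the S100 genes 3 and 1. Over all 11595 genes 1040 were higher and 829 lower than in FAT1 wells. Against CDKN2A wells 5 basal, 2 squamous and 6 S100 genes were lower, and 1 squamous gene was higher. Over all 11595 genes 1326 were higher and 1033 lower than in CDKN2A wells. The run at the end of 20q had 1 of 13 genes called against NRF2 (median -0.044), against 9 of 13 lower than in NRG1 wells (median -1.165, beside 1.57% of all genes) and 5 of 13 lower than in FGFR1 wells (median -0.821, beside 0.914%), and the run at the end of 11q had 0 of 16 (median 0.085). RPS21 and HSPA8, within the runs, were not called against NRF2 wells (-0.04, adjusted p = 0.89, and 0.15, adjusted p = 0.388). NPM1 on 5q (0.10, adjusted p = 0.611) and C3orf14, which was 2.35 lower than in HcRed wells on the log2 scale (SE 0.16, adjusted p = 1.93e-20), were not called against NRF2 wells either (0.21, adjusted p = 0.795). These comparisons share the PIK3CA wells with those above.

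In the same fit, 14 of 11595 genes (0.121%) differed in 1 direction from each of the 7 other populations, 8 higher (0.069%) and 6 lower (0.0517%). The higher genes were SPARC, BBS9, KRT7, KRT18, ANXA3, CD59, LDHA and PIK3CA. BBS9, a subunit of the BBSome that serves the primary cilium, was at 183, 190 and 172 CPM in PIK3CA wells, 50.7, 51.6 and 47 CPM in HcRed wells, and 6.63, 4.85 and 5.74 CPM in GFP wells. Its mean was 80.1 CPM in NRF2, 56.6 in FGFR1, 19.2 in NRG1, 6.75 in FAT1 and 4.88 in CDKN2A wells. SPARC and KRT7 had a similar order: SPARC had a mean of 224 CPM in PIK3CA, 135 in NRF2, 133 in FGFR1, 56.1 in HcRed and 27.9 CPM in NRG1 wells, and 2.91, 2.41 and 2.62 CPM in GFP, FAT1 and CDKN2A wells. The SPARC ranges of NRF2 wells (122 to 144 CPM) and FGFR1 wells (119 to 145 CPM) overlapped, and so did those of GFP, FAT1 and CDKN2A wells, while the other neighbours in this order did not. ANXA3, an annexin, ranged over 323 to 335 CPM in PIK3CA wells and 101 to 253 CPM in the other 21 wells, and CD59, the complement inhibitor, over 772 to 785 CPM against 356 to 653 CPM.

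The lower genes were KRT19, FXYD3, SERPINB13, S100A4, TXNIP and KLK8. KRT19 had 74 to 101 CPM in PIK3CA wells and 203 to 349 CPM in the other 21. TXNIP had 31.7 to 42.3 CPM against 51.3 to 222 CPM, with NRF2 wells nearest (adjusted p = 0.0253). PIK3CA passed by the least, with CDKN2A wells nearest at a mean of 5.44 CPM against 11.8 CPM in PIK3CA wells (log2 fold change 0.96, adjusted p = 0.0447), and 1 PIK3CA well, at 5.85 CPM, lay below the highest CDKN2A well. PIK3CA lies on 3q, where the 208 genes of the kind used for the runs had a median of 0.53 to 0.65 in the CDKN2A wells and of -0.03 to 0.01 in the PIK3CA wells, relative to HcRed.

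**Figure D4:**
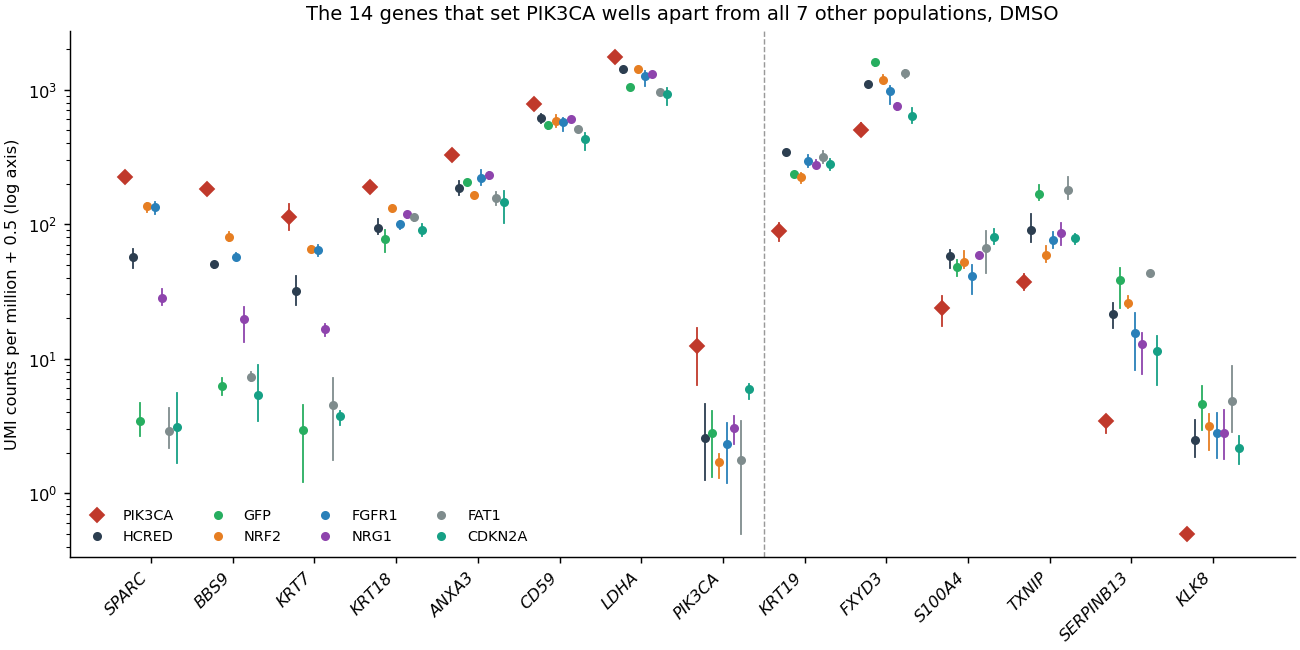
CPM + 0.5 (UMI counts normalised to one library size and scaled by trimmed mean of M-values, log axis) of the 14 genes in the 24 DMSO wells of the 8 populations, with a point at each population's mean and a line from its lowest to its highest well. BBS9, SPARC and KRT7 are highest in PIK3CA wells and next highest in NRF2 and FGFR1 wells, and KRT19 is lowest in PIK3CA wells (74 to 101 CPM).

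The other chemicals gave wells that the DMSO comparison did not use. Cigarette smoke condensate (CSC) was given at 24 µg/ml, the tobacco nitrosamine NNK at 490 µM and benzo[a]pyrene (BaP), a polycyclic aromatic hydrocarbon, at 173 µM. Between PIK3CA and HcRed cells, 505 of 11033 genes (4.58%) were called under CSC and 327 of 10465 (3.12%) under NNK. Of the 382 genes higher in DMSO, 369 were above 0 under CSC and 234 were called higher (61.3%, against 2.79% of all genes tested), and 372 were above 0 under NNK with 163 called (42.7%, against 1.84%). The 234 and 163 genes were 76% and 84.5% of all genes called higher under CSC and NNK. Of the lower genes, 98 of 219 were called lower under CSC (44.7%, against 1.79%) and 85 of 220 under NNK (38.6%, against 1.28%), which were 49.7% and 63.4% of the genes called lower there. No gene was called in the opposite direction under either chemical, and 203 genes were called in 1 direction in all 3.

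**Figure D5:**
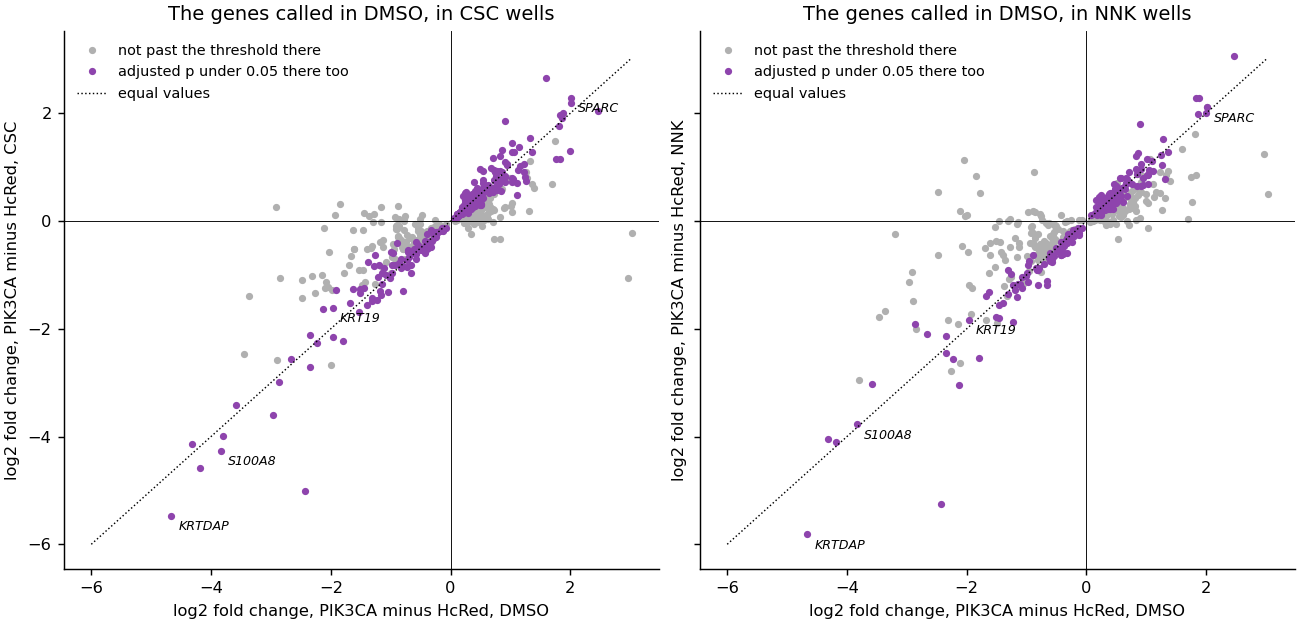
Log2 fold change of PIK3CA against HcRed cells under CSC (left) and NNK (right) on the vertical axis against the same in DMSO on the horizontal axis, for the genes called in DMSO and tested there, with a dotted line of equal values and purple for genes called there too. Of the higher genes 369 and 372 lie above 0 under CSC and NNK, and SPARC, KRT19 and S100A8 keep their side in both.

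SPARC held 170 ± 29.3 CPM in PIK3CA and 33.8 ± 2.9 CPM in HcRed wells under CSC, 216 ± 17.7 and 49.8 ± 5.01 CPM under NNK, and 207 ± 11.7 and 50.1 ± 3.48 CPM under BaP (mean ± SD, n = 3 each). KRT19 held 73.4 ± 4.8 against 221 ± 11.2 CPM under CSC, 86.1 ± 8.48 against 309 ± 17.1 CPM under NNK and 77.8 ± 7.62 against 283 ± 22.4 CPM under BaP. KRT7 was 1.97 higher under CSC (adjusted p = 1.89e-11) and 2.28 higher under NNK (adjusted p = 4.42e-11) on the log2 scale. No test was made under BaP, because part of the HcRed wells there carry replicate numbers of 2 digits whose meaning the labels do not give. PIK3CA itself was called under CSC (2.05, adjusted p = 0.0114) and NNK (3.07, adjusted p = 0.0182).

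Some basal and matrix differences were smaller under the chemicals. KRT5 differed by -0.41 under CSC (adjusted p = 0.0122) and -0.62 under NNK (adjusted p = 6.06e-05), against -0.90 in DMSO. AXL was 0.28 under CSC (adjusted p = 0.639) and 0.51 under NNK (adjusted p = 0.541), and LAMB3 was -0.35 (adjusted p = 0.329) and -0.48 (adjusted p = 0.376). These are not shown to differ from DMSO. The test of the change itself, an interaction of population and chemical over 12 wells, called 0 of 11237 genes for CSC (649 at an unadjusted p under 0.05) and 1 of 11023 for NNK (0.00907%, 591 at an unadjusted p under 0.05). For CSC, edgeR called 1 gene and DESeq2 0. The gene called for NNK was S100A6.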

How the data were processed

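Per the study's methods and processing notes, the authors had 3′ reads of 46 bases aligned to RefSeq hg19 transcripts with BWA aln (0.7.10), and each combination of well barcode (6 bases), UMI (10 bases) and gene was counted once. The deposited values are these whole-number counts per gene and well, not normalized, and a UMI was counted where it aligned to only 1 gene, so genes with near-identical copies may be undercounted.

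From the counts, genes with a mean above 1 in the wells of a fit were tested with limma (3.58.1) on voom weights after TMM scaling (edgeR 4.0.16, R 4.3.3), two-sided, with Benjamini-Hochberg adjustment over all genes tested and a threshold of 0.05. The moderated test of limma, run on the voom-weighted fit, shares information on the spread across genes (prior degrees of freedom 66.5 beside 4 residual in PIK3CA against HcRed). Alternatives were edgeR's quasi-likelihood test, DESeq2 (1.42.0), median-ratio size factors, other count minimums, the replicate number as a block, all wells of a chemical in 1 fit, and leaving out each well. The steps were tested on simulated data. Counts within a group differed by more than sampling noise, so no library was counted as a duplicate.

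Members and gene lists were chosen with earlier results of these data known. Named genes were PIK3CA and SPARC, up to 15 genes a direction with the smallest adjusted p, every PIK3CA well beyond all control wells and a mean count of at least 10, up to 8 a direction that did not pass against GFP, up to 5 called and 3 uncalled members a list, the genes apart from all 7 populations, and any PI3K-AKT-mTOR member. Genes named for their position in a chromosome run and single list members outside this rule were chosen after their values were seen. Positions matched for 10179 of 11231 tested genes (90.6%). Exact intervals on UMI sums cover counting error only. Groups came from the sample labels. BaP wells were described and not tested. Some members of the gene lists are counted among the genes tested but are not reported here.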

Additional observations from a re-analysis of the deposited data

Results flagged for a closer look

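S100A6 was the 1 gene whose difference between PIK3CA and HcRed cells itself differed between NNK and DMSO. Its level was 5370 ± 353 CPM in PIK3CA and 7090 ± 427 CPM in HcRed wells in DMSO, and 5690 ± 212 and 8780 ± 175 CPM under NNK (mean ± SD, n = 3 each). The PIK3CA minus HcRed difference was -0.40 in DMSO and -0.61 under NNK on the log2 scale, and the change of -0.224 (SE 0.04) had an adjusted p of 0.00941 in limma over 11023 genes. The call was kept with median-ratio size factors and with the replicate block (adjusted p = 0.0153 and 0.00142), and it was lost in edgeR, in DESeq2, with no filter, with a mean count above 5, and without HCRED NNK well 1, PIK3CA DMSO well 1, PIK3CA NNK well 1 or PIK3CA NNK well 3. Under CSC the PIK3CA minus HcRed difference was -0.52.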

How the results depend on the processing

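PIK3CA against HcRed in DMSO gave 603 called genes, and 336 in DESeq2, 397 with all DMSO wells in 1 fit and 441 to 549 with 1 well left out. Other alternatives gave 593 to 682. Of the 603, DESeq2 passed 336, did not pass 165 and gave 102 no adjusted p, as it did for 7621 of all genes tested. DESeq2 also called fewer in PIK3CA against GFP (1127 for 1988, and 1560 to 1687 with 1 well left out), GFP against HcRed (671 for 1201, and 913 to 1014), CSC (299 for 505, and 341 to 466) and NNK (192 for 327, and 223 to 291). With all NNK wells in 1 fit, 80 were called. For the 14 genes apart from all 7 populations the counts were 11 to 18, and 11 to 21 with 1 well left out, the 21 without CDKN2A DMSO well 2. The CSC interaction, with no gene called, gave 1 in edgeR, 1 with the replicate block and 0 to 3 with 1 well left out. The NNK interaction, with 1 gene, gave 0 in DESeq2, with no filter and with a mean count above 5, 2 with the block and 0 to 3 with 1 well left out. Same-numbered PIK3CA and HcRed DMSO wells correlated at -0.017, 0.004 and 0.014 in their deviations. With 3 wells a group and counting noise in the deviations, these values cannot show whether same-numbered wells were handled together. With the replicate block 650 genes were called between PIK3CA and HcRed. Of 132 called named genes, 92 passed in the same direction under every alternative that gave them an adjusted p, 40 did not, and none reversed. Where a count changed, the cause was not tested beyond the settings themselves.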

Other observations

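The metallothioneins MT2A and MT1E and the ferritin genes FTL and FTH1 were higher in PIK3CA than in HcRed wells. MT2A, a metallothionein that binds zinc and copper, was at 34400, 32200 and 30100 CPM in PIK3CA wells, 21800, 19900 and 21600 CPM in HcRed wells and 14600, 16400 and 14800 CPM in GFP wells. The groups did not overlap, and the log2 fold change against HcRed was 0.62 (SE 0.02, adjusted p = 6.3e-39 in limma). Of 6 metallothioneins tested, 2 were called higher (MT2A and MT1E, 0.52) and 2 lower (MT1X, -0.20, and MT1A, -2.32), and neither of the lower genes passed against GFP. FTL, the light chain of ferritin, was at 7080, 7170 and 7430 CPM in PIK3CA wells against 4340, 4050 and 4400 CPM in HcRed wells (0.77, SE 0.02, adjusted p = 2.36e-39 in limma). Of 30 NRF2 target genes, 5 were higher (FTL, TXN, PRDX1, FTH1 and TXNRD1) and 3 lower (AKR1C2, GPX2 and ALDH3A1), with 5 and 0 in DESeq2 (no adjusted p for the 3 lower genes), 2 and 3 with all DMSO wells in 1 fit, and a median of -0.16, beside -0.016 over all 11231 genes. FTL did not differ in a called way from the NRF2 wells (0.02, adjusted p = 0.955 in limma) or the FGFR1 wells (0.004, adjusted p = 0.991). It was lower than in CDKN2A wells (-0.56) and higher than in GFP (0.96), NRG1 (0.69) and FAT1 wells (0.66), each called in the same fit.

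Of 78 ribosomal protein genes, 23 were higher and 11 lower, with a median of 0.05, beside 3.4% and 1.97% of all genes tested. Genes called higher had a median mean count of 273.7, against 11.3 for all genes tested. RPL34 was at 5870, 6200 and 5880 CPM in PIK3CA wells against 5040, 4860 and 5180 CPM in HcRed wells, and RPS27 at 7820, 7950 and 7580 CPM against 9500, 9250 and 9680 CPM. Of 25 contractile and cytoskeletal genes, 5 were higher, among them the actins ACTG1 (0.49) and ACTB (0.21), and TMSB4X, which binds actin monomers, was lower (-0.39). With all DMSO wells in 1 fit, 1 was higher and 1 lower. Of 23 caveolins, annexins and membrane scaffold genes, 4 were higher, led by LGALS1 (0.92) and ANXA3 (0.83), and CD9 was lower (-0.33). CD9 did not pass in DESeq2 (adjusted p = 0.0931) or with all DMSO wells in 1 fit (adjusted p = 0.126 in limma). Of 27 chaperones, 3 were higher (HSPA8, HSPD1 and HSPE1) and 2 lower (PDIA6 and HSPA1B), and DESeq2 called 3 and 0, with no adjusted p for HSPA1B.

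Of 38 interferon-stimulated and antigen presentation genes, 3 were higher (IFITM3, 1.03, PSMB8, 0.66, and B2M, 0.18) and IFI27 was lower (-0.67). With all DMSO wells in 1 fit, IFI27 (adjusted p = 0.0532 in limma) and B2M (adjusted p = 0.112) did not pass. IFI27 did not pass in DESeq2 either (adjusted p = 0.105), and PSMB8 was lost without HcRed well 2 or without PIK3CA well 2. Against GFP, IFI27 went the other way (2.37, adjusted p = 1.22e-06 in limma). Of 20 chemokines, cytokines and NF-kB feedback genes, SAA1 (0.73) and IL18 (0.33) were higher and IL1RN, the interleukin-1 receptor antagonist, was lower (-1.96), at 2.6, 2.64 and 2.28 CPM against 13.1, 8.83 and 11.2 CPM in HcRed wells. IL18 did not pass in DESeq2 (adjusted p = 0.0579) or with all DMSO wells in 1 fit (adjusted p = 0.0639 in limma). Of 8 AHR target genes, none was higher and 3 were lower: AHR itself (-1.29), CYP1B1 (-1.40) and ALDH3A1, with 1 UMI over the PIK3CA wells and 15 over the HcRed wells, a ratio of 16.2 (exact interval 2.5 to 683). Without PIK3CA DMSO well 1 none of the 3 passed (adjusted p = 0.0521, 0.107 and 0.188 in limma), and DESeq2 gave none of the 3 an adjusted p.

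Of 20 p53 target genes, 1 passed, PERP (-0.83), a desmosome component. Of 16 YAP and TGF-beta target genes, AXL was higher (1.00) and SKIL lower (-0.88), and AXL did not pass without PIK3CA DMSO well 1 (adjusted p = 0.0542 in limma). Of 24 proteases and inhibitors of matrix turnover, none was higher and 3 kallikreins were lower (KLK7, KLK10 and KLK11), 1 of them also against GFP. Of these, only KLK7 passed without each 1 of the PIK3CA wells in turn, and DESeq2 gave none of the 3 an adjusted p. Of 17 airway antiproteases and secreted defence genes, 2 were higher (ANXA1 and WFDC2, 1.37) and 5 lower (PI3, SLPI, CSTA, SERPINB13 and SERPINB7), and DESeq2 called 1 and 3, with no adjusted p for the other 3. Of 11 integrins, none passed in limma, with 0 higher and 2 lower at an unadjusted p under 0.05 and 0 called by edgeR or DESeq2. ITGB1 was at 164, 164 and 177 CPM in PIK3CA wells, 193, 184 and 214 CPM in HcRed wells and 188, 217 and 195 CPM in GFP wells.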
